A study of Homo sapiens with 8 samples.

Results

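OVSAHO and KURAMOCHI, both established human ovarian cancer cell lines, were compared across the whole transcriptome with the drug held the same in both. The comparison uses all 8 of 8 arrays of the series, 4 of OVSAHO cells and 4 of KURAMOCHI cells, and each line is represented by the mean of its 2 drug groups. The groups were OVSAHO with simvastatin, OVSAHO with L-778123, KURAMOCHI with simvastatin and KURAMOCHI with L-778123, each on 2 arrays. Simvastatin is a statin, and L-778123 inhibits the farnesyl and geranylgeranyl transferases, the enzymes that attach isoprenoid lipids to proteins. Every array therefore carries a drug, no untreated cells were analysed here, and neither concentrations nor times of the treatments behind the arrays are given in the sources used here. A difference was called when limma's Benjamini-Hochberg adjusted p was under 0.05 and the change reached 2-fold, and it was counted as held under both drugs when it was called, in the same direction, with simvastatin, with L-778123 and in the average of both.

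Cell lines from the same kind of tumor keep a record of where the tumor came from and how far it moved from that origin. The transcription factors PAX8, WT1 and SOX17 mark the fallopian tube and Mullerian epithelium from which serous carcinoma is thought to arise, adhesion genes such as CDH1 and EPCAM mark the epithelial state, and the HOX genes, which lie in 4 clusters, record position along the body axis. Imprinted genes, cancer testis genes and runs of neighbouring genes that differ together are further features by which lines can be told apart.

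The arrays separated first by cell line. The first principal component held 82.5% of the variance over the 33752 probes tested and split the lines, and the next held 10.7% and split the drugs. Pearson's correlation across probes, which are not independent replicates, was 0.995 to 0.996 between replicate arrays, 0.973 to 0.984 between the drugs within a line and 0.876 to 0.881 between the lines with the same drug. The 75th percentile of the intensity lay between 324 and 437, between 51.8% and 57.5% of the probes on an array were well above background, and saturation was found at 0 spots. Nothing in the labels says whether the 2 arrays of a group came from separate cultures, so p-values measure only the spread between these arrays, which may be technical. All arrays lay on 1 slide, the lines in separate rows of it, so that the effects of line and of slide position cannot be told apart.

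Of 16954 genes tested, 2481 were higher in OVSAHO and 2232 were higher in KURAMOCHI under both drugs, which is 14.6% and 13.2% of the genes tested. Differences are given as OVSAHO minus KURAMOCHI throughout, so that a negative value is higher in KURAMOCHI. Errors are limma's standard errors with 4 arrays a line. They come from the spread between the 2 arrays of a group and leave out the difference between the drugs within a line. The median fitted size of the differences held under both drugs was 2.02 on the log2 scale. On this fitted scale 321 genes higher in OVSAHO and 371 genes higher in KURAMOCHI differed by at least 16-fold. By the probe used, 558 held genes higher in OVSAHO and 416 higher in KURAMOCHI were not well above background on any array of the other line. For these the fitted fold rests on dim signals, and the bound can be well under 16-fold. The values of the 4 OVSAHO and the 4 KURAMOCHI arrays did not overlap for 4629 of the 4713 genes. These genes were chosen by their difference on the same arrays, so this count is no separate support. Only a few genes turned with the drug, since 16 genes were called under both drugs with opposite signs. Among the held genes, 667 of those higher in OVSAHO and 673 of those higher in KURAMOCHI had an adjusted p under 0.05 for a difference between the drugs. The median difference over all genes tested was 0.03 after this scaling, and -0.10 without the filter on dim probes.

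**Figure D1:**
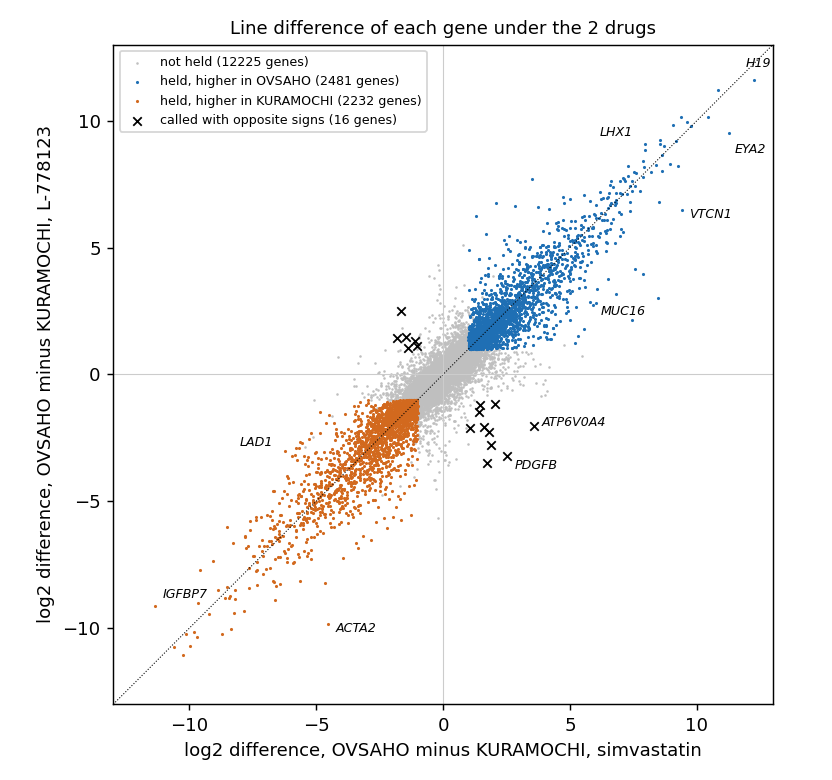
Each point is a gene, with the log2 difference of OVSAHO minus KURAMOCHI under simvastatin on the x axis and under L-778123 on the y axis; blue and orange points are the 2481 and 2232 genes held under both drugs, crosses are the 16 genes called with opposite signs, and the dotted line marks equal differences. Most held genes lie near the dotted line, while ACTA2, MUC16 and LAD1 lie away from it.

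Many genes were measured in 1 line and not in the other. Among the held genes, 440 were well above background on all 4 OVSAHO arrays while no probe of the gene was on any KURAMOCHI array, and 318 showed the reverse. For such genes the fold is a lower bound, the mean of the line that expresses the gene against the mean, per array, of the lowest signal well above background or the probe's own signal, whichever was higher. An adjusted p given beside a bound is that of the fitted difference, which uses the dim signals, and the bound itself was not tested. The largest bounds in OVSAHO were those of H19, an imprinted noncoding RNA, at least 877-fold higher, XAGE1A, a cancer testis gene, at least 527-fold higher, and NELL1, which encodes a secreted protein, at least 429-fold higher. Among the largest in KURAMOCHI were those of EGFLAM, a matrix protein, at least 655-fold higher, and SPP1, the secreted phosphoprotein osteopontin, at least 420.0-fold higher. XAGE1A, CT45A5, CT45A1 and the heat shock gene HSPA1A have near-identical copies, so that their probes may also read the copies. HSPA1A was well above background on all 8 arrays, at 7.22 to 7.37 in OVSAHO and -1.53 to -1.26 in KURAMOCHI on the log2 scale relative to the 75th percentile of the array, a scale used for all levels given here.

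Genes of the HOX clusters differed in both directions. HOX genes encode homeodomain transcription factors, and their order in a cluster follows the order in which they are used from head to tail. Of 39 listed genes, 25 could be tested, 13 were higher in OVSAHO and 7 were higher in KURAMOCHI under both drugs. That is 52.0% and 28.0% of those tested, beside 14.6% and 13.2% of all genes. With only probes well above background on all 8 arrays, the counts were 3 in OVSAHO and 5 in KURAMOCHI. The median difference of the list was 1.44, beside 0.03 for all genes, but it was -0.22 when only probes well above background on all 8 arrays were used, since the genes not well above background in KURAMOCHI were then left out, and -0.20 without any filter on dim probes. The HOXA cluster was on the OVSAHO side from HOXA2 to HOXA6, and all 5 HOXD genes tested were on the KURAMOCHI side.

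The sequences just before the annotated starts of 4 genes are shown because each has a large line difference described here, HOXA4 and H19 for OVSAHO, and HOXD3 and LIN28B for KURAMOCHI. They are the 200 bases before the start, 5′ to 3′ on the strand of the gene, from RefSeq on GRCh38.p14, and capitals mark CpG dinucleotides, the letters CG, where DNA methylation falls. Methylation was not measured here. HOXA4 lies at chr7:27130758-27130957 on the minus strand, HOXD3 at chr2:176157107-176157306 on the plus strand, H19 at chr11:2001267-2001466 on the minus strand and LIN28B at chr6:104940765-104940964 on the plus strand.
HOXA4: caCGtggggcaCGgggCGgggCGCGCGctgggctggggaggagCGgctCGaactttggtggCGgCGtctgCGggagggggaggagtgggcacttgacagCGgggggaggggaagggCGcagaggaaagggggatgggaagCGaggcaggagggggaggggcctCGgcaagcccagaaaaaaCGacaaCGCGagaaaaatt
HOXD3: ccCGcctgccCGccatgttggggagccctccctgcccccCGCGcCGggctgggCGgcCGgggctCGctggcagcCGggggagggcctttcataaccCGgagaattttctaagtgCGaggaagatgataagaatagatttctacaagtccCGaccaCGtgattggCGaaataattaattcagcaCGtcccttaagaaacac
H19: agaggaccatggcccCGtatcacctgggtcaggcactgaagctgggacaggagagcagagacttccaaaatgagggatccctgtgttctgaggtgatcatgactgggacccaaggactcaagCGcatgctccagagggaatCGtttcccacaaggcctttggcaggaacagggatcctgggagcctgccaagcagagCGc
LIN28B: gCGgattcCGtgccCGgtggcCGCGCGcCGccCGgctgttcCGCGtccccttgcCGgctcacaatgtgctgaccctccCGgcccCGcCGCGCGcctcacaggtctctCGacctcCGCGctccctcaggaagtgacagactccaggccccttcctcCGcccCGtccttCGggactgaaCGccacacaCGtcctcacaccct
These stretches hold 18, 15, 4 and 24 CpG, beside a median of 9 over 27305 promoters of the same length. As many CpG or more were found in 29.4%, 37.3%, 66.2% and 14.9% of all promoters. Of these genes, HOXA4, H19 and LIN28B were each measured in only 1 of the lines, while HOXD3 was well above background on all arrays of both.

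HOXA3 stood at 0.61 and 0.74 in OVSAHO with simvastatin and at 1.16 and 1.09 with L-778123, and it was not well above background on any KURAMOCHI array. It was at least 41.8-fold higher in OVSAHO (adjusted p of the fitted difference = 9.56e-08). HOXA4 stood at 0.63, 0.71, 0.52 and 0.59 on the same OVSAHO arrays and was at least 34.2-fold higher (adjusted p of the fitted difference = 4.91e-06). In both genes the OVSAHO arrays lay above all KURAMOCHI arrays, which follows from the large differences for which they were named and is no separate support. HOXA5 stood at -0.11 to 0.72 in OVSAHO and was well above background on 2 of the 4 KURAMOCHI arrays. Its log2 difference was 4.77 ± 0.28 (limma's SE, n = 4 arrays a line). HOXA2, HOXA6 and HOXA13 were also measured in OVSAHO only, but close to background, with bounds of 2.74-fold, 1.5-fold and 1.51-fold, and these 3 genes and HOXC8 were no longer called when the background was corrected with normexp. HOTAIRM1, a noncoding RNA transcribed from the same end of the cluster, went with them, at 4.63 to 4.86 in OVSAHO against -2.73 to -1.87 in KURAMOCHI, and its 3 probes gave log2 differences of 6.61 to 7.08.

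Toward the other end of the HOXA cluster the probes of HOXA9 and HOXA10 disagreed. The brightest probes of HOXA9 and HOXA10 gave log2 differences of -0.22 and 0.05, which were not called. The other 3 probes of HOXA9 gave -4.01 to -7.15 and the other probe of HOXA10 gave -5.42, all higher in KURAMOCHI under both drugs and not well above background on any OVSAHO array. No call is given for either gene. HOXA11-AS, the antisense RNA of HOXA11, was measured in KURAMOCHI only and was at least 50.3-fold higher there (adjusted p of the fitted difference = 1.18e-06).

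In the HOXD cluster, HOXD3 stood at 3.62, 3.60, 2.69 and 2.71 in KURAMOCHI and at -1.36, -1.26, -2.18 and -2.13 in OVSAHO, with simvastatin first. The log2 difference was -4.89 ± 0.04 (adjusted p = 4.78e-08), and the test for a change of this difference with the drug gave an adjusted p of 0.648 (limma). HOXD1 differed by -4.79 ± 0.06, HOXD9 by -4.70 ± 0.07 and HOXD8 by -2.53 ± 0.07, and HOXD4 was measured in KURAMOCHI only, at least 6.0-fold higher. In each HOXD gene tested all KURAMOCHI values lay above all those of OVSAHO, which restates these differences and is no separate support.

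The HOXB and HOXC clusters were mixed. HOXB9 and HOXB13 were measured in OVSAHO only, at least 8.07-fold and 5.02-fold higher, and HOXB6 in KURAMOCHI only, at least 33.2-fold higher there. HOXC9 stood at 3.28 to 4.57 in OVSAHO and -2.38 to -1.60 in KURAMOCHI, a log2 difference of 5.88 ± 0.09, and HOXC4 and HOXC8 were also higher in OVSAHO. HOXC6, which lies between HOXC4 and HOXC8, went the other way, at -2.13 to -1.76 in OVSAHO and 1.89 to 2.04 in KURAMOCHI. HOXA7, HOXB3 and HOXB4 were not called, with differences of -0.68, 0.64 and 0.97.

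**Figure D2:**
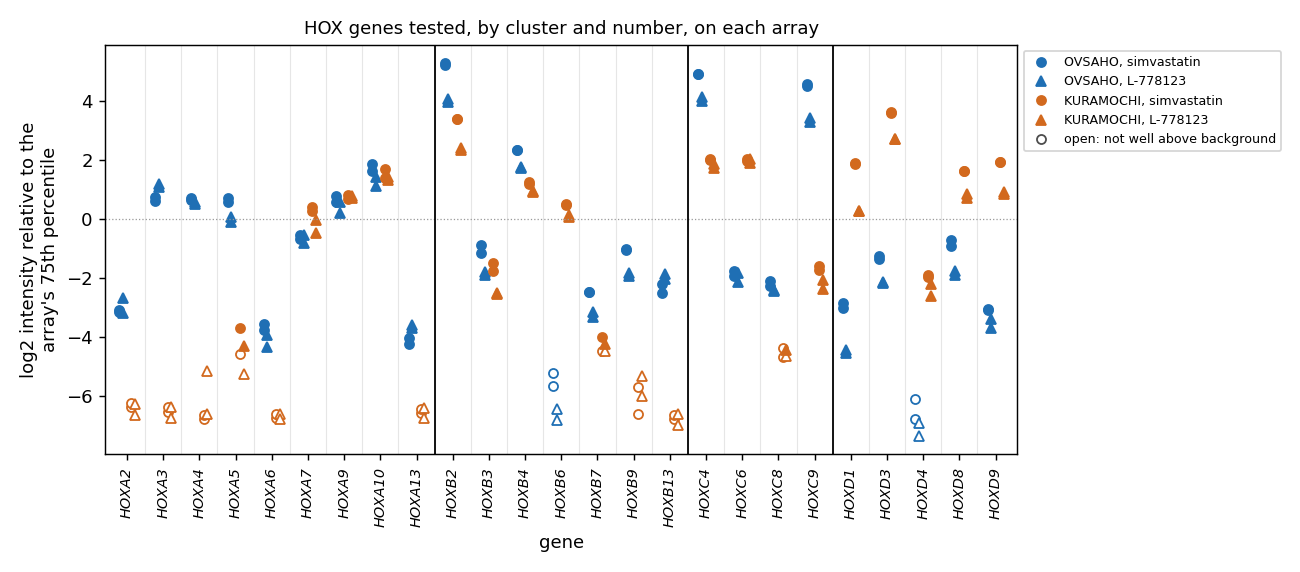
The 25 HOX genes tested are on the x axis by cluster and number, and each point is the log2 intensity of 1 array relative to its 75th percentile; blue is OVSAHO, orange KURAMOCHI, circles simvastatin, triangles L-778123, and open points are not well above background. OVSAHO points lie above KURAMOCHI points from HOXA2 to HOXA6, and below them in all 5 HOXD genes.

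The markers of ovarian serous and Mullerian epithelium showed which features the lines share. PAX8, a transcription factor of the Mullerian tract, stood at 4.08 to 4.89 in OVSAHO and 3.75 to 4.46 in KURAMOCHI. WT1, a transcription factor of serous carcinoma and mesothelium, stood at 1.94 to 2.20 and 2.02 to 2.28. SOX17, a partner of PAX8 in these cells, stood at 6.16 to 6.71 and 6.67 to 7.03. The ranges of PAX8, WT1 and SOX17 overlapped between the lines, and their log2 differences of 0.41, -0.06 and -0.44 were under 2-fold. MSLN, the surface antigen mesothelin, differed by -0.82 and was not called. PAX8, WT1, SOX17 and MSLN were well above background on all 8 arrays, while the progesterone receptor gene PGR was too dim to be tested.

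Around this shared core, 15 of the 38 lineage genes tested were higher in OVSAHO and 11 were higher in KURAMOCHI. That is 39.5% and 28.9%, beside 14.6% and 13.2% of all genes, and the median difference of the list was 0.87. FOLR1, the folate receptor that several ovarian cancer therapies target, stood at 7.20 and 7.24 in OVSAHO with simvastatin and at 8.36 and 8.39 with L-778123. It stood at 2.11, 2.28, 2.61 and 2.60 on the KURAMOCHI arrays, a log2 difference of 5.40 ± 0.05 (adjusted p = 5.71e-08). The lines were far apart, and the L-778123 arrays were the higher ones in both. MUC16, the gene of the serum marker CA125, stood at 2.70, 2.92, 0.62 and 0.64 in OVSAHO and at -3.32, -2.86, -2.01 and -2.18 in KURAMOCHI. Its line difference was 5.89 under simvastatin and 2.73 under L-778123 (adjusted p of the change = 0.00103). WFDC2, the gene of the serum marker HE4, was high in both lines and higher in OVSAHO by 2.60 ± 0.06. LHX1, a transcription factor of the developing kidney and Mullerian duct, differed by 8.52 ± 0.06. VTCN1, an inhibitory surface protein of the B7 family, was measured in OVSAHO only, at least 75.3-fold higher.

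ESR1, the estrogen receptor, was higher in OVSAHO by all 3 probes under both drugs, by 1.64 on the brightest probe, while the other probes were not well above background on any KURAMOCHI array. With normexp the brightest probe gave 0.99 and was not called. GREB1, known as an estrogen-induced gene, was measured in KURAMOCHI only by the probe used, at least 15.5-fold higher, and its other probe gave -2.01. On the KURAMOCHI side were also CRABP2, which binds retinoic acid, at -4.58 ± 0.04, the kallikrein KLK5 at -3.95 ± 0.05 and the transcription factors GATA6 at -3.83 ± 0.07 and GATA4, measured in KURAMOCHI only, at least 3.66-fold higher. The other probe of CRABP2 gave -0.36 and was not called. Kallikreins and mucins as a family were split, with 6 of 17 genes tested (35.3%) on each side, beside 14.6% and 13.2% of all genes. KLK7 and KLK10 went with OVSAHO and KLK5, KLK1 and KLK4 with KURAMOCHI. KLK10, KLK1 and KLK4 were not called with normexp, at 0.79, -0.51 and -0.66.

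The epithelial genes leaned to OVSAHO. Of 43 genes tested, 17 were higher in OVSAHO and 4 in KURAMOCHI, and the median difference was 0.85. In OVSAHO this was 39.5%, beside 14.6% of all genes, while the KURAMOCHI share lay somewhat below the 13.2% of all genes. CDH1, the gene of E-cadherin, stood at 3.91, 3.89, 3.19 and 3.19 in OVSAHO and at -2.11, -2.37, -2.25 and -2.21 in KURAMOCHI, a log2 difference of 5.78 ± 0.07 (adjusted p = 8.03e-08). EPCAM, an epithelial adhesion molecule, stood at 4.94 to 5.12 and 2.30 to 2.55, a log2 difference of 2.60 ± 0.05. PKP3, a desmosome protein, was measured in OVSAHO only, at least 24.9-fold higher. The epithelial transcription factor ELF3 differed by 3.15 ± 0.07, and the claudins CLDN7 and CLDN4, which seal tight junctions, differed by 1.68 and 1.53. Exceptions on the KURAMOCHI side were LAD1 at -4.62, CDH3, the gene of P-cadherin, at -3.14, KLF5 at -1.91 and PPL at -1.89. GRHL2 and ESRP1, regulators of the epithelial state, were dim in both lines and were not called.

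Keratins differed by member and not as a family, 4 of 18 tested with OVSAHO and 5 with KURAMOCHI. Their shares were 22.2% and 27.8%, beside 14.6% and 13.2% of all genes. KRT7, the keratin of simple Mullerian epithelium, stood at 7.71 to 8.40 in OVSAHO and 3.47 to 3.70 in KURAMOCHI. KRT5 and KRT16 were measured in OVSAHO only, at least 4.98-fold and 7.01-fold higher. KRT19 was higher in KURAMOCHI, with a difference of -3.99 ± 0.06, and KRT6A was measured in KURAMOCHI only, at least 25.8-fold higher, though near-identical copies such as KRT6C share its sequence. KRT8 and KRT18, the pair of simple epithelia, differed by -0.90 and -0.84 and were called under L-778123 only, and another probe of KRT8 gave 1.16.

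The mesenchymal genes leaned to KURAMOCHI. Of 42 listed, 31 could be tested, 17 were higher in KURAMOCHI and 3 in OVSAHO, and the median difference was -1.36. The shares were 54.8% and 9.68%, beside 13.2% and 14.6% of all genes. IGFBP7, a secreted protein of stroma, stood at 8.51 to 8.60 on all 4 KURAMOCHI arrays and at -2.83, -2.68, -0.47 and -0.70 in OVSAHO, a log2 difference of -10.22 ± 0.07 (adjusted p = 4.22e-08). Its KURAMOCHI arrays spanned only that range, while its OVSAHO level was higher with L-778123 (adjusted p of the change of the line difference = 6.67e-04). SPARC, a matrix glycoprotein, stood at 4.98 to 5.96 in KURAMOCHI and -1.65 to -0.05 in OVSAHO. The collagen COL3A1, fibronectin FN1 and the repressor of CDH1 named SNAI2 were measured in KURAMOCHI only, at least 68.9-fold, 5.89-fold and 6.09-fold higher. ZEB2, a repressor of epithelial genes, was measured in KURAMOCHI only as well, at least 3.38-fold higher, and the receptor tyrosine kinase AXL differed by -2.81.

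Other defining mesenchymal genes differed by less than 2-fold on average. VIM, the gene of the filament vimentin, stood at 7.61 to 8.92 in OVSAHO against 7.43 to 7.83 in KURAMOCHI, a difference of 0.64, with a call under simvastatin only, CDH2, N-cadherin, differed by 0.23, and the repressor ZEB1 differed by -0.71. LOX, TGFBI and TWIST2 were the 3 genes higher in OVSAHO, and LOX and TGFBI there were near background, with bounds of 3.58-fold and 1.34-fold. In the list of fibroblast and smooth muscle genes, 0 of 12 tested were higher in OVSAHO, beside 14.6% of all genes. In KURAMOCHI 8 of them (66.7%) were higher, beside 13.2% of all genes, with a median difference of the list of -4.12. Among these, ACTA2, the smooth muscle actin, stood at 1.62, 1.49, 6.65 and 6.64 in KURAMOCHI and at -3.30 to -2.93 in OVSAHO, so that its line difference was -4.55 under simvastatin and -9.86 under L-778123. The contractile genes ACTG2 and TAGLN and the surface protein THY1 differed by -4.75, -4.64 and -5.19. The fibroblast markers DCN, LUM, PDGFRA, PDGFRB, FAP and COL1A2 were too dim to be tested. In bulk RNA, fewer cells of a state and less RNA per cell cannot be told apart. Of 20 blood and endothelial genes tested, 1 (5.0%) was higher in OVSAHO and 3 (15.0%) in KURAMOCHI, beside 14.6% and 13.2% of all genes. Those higher in KURAMOCHI included EMCN and PTPRC, the last with another probe at -0.04. EMCN and PTPRC were not called with normexp. CD3E of T cells, MS4A1 of B cells, HBB of red cells and PECAM1 of endothelium were too dim to be tested, as no group had them well above background on both of its arrays.

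**Figure D3:**
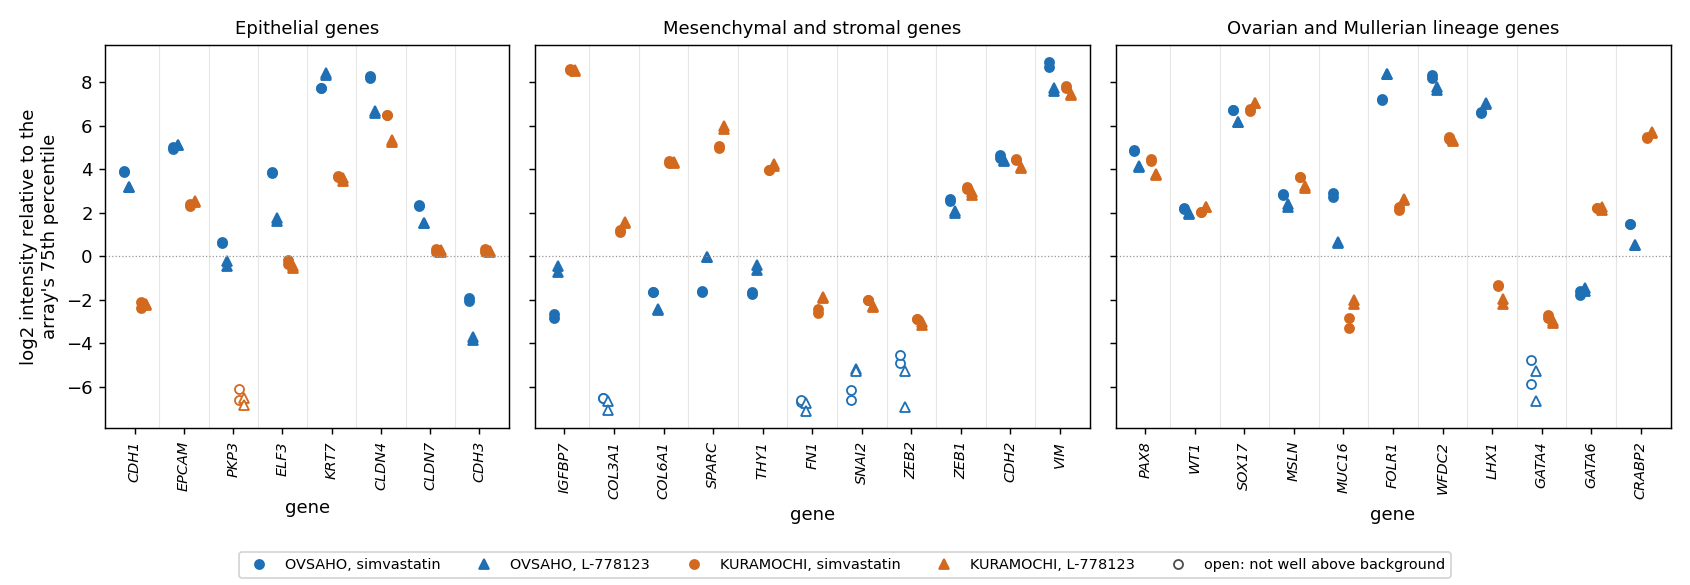
Genes on the x axis are grouped as epithelial, mesenchymal and stromal, and ovarian lineage genes, and each point is the log2 intensity of 1 array relative to its 75th percentile; colors and shapes stand for line and drug, and open points are not well above background. PAX8, WT1, SOX17, CDH2 and VIM sit at similar levels in both lines, while CDH1 and IGFBP7 are far apart.

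Developmental transcription factors outside the HOX clusters lay more often on the KURAMOCHI side, where 24 of 62 tested were higher, than on the OVSAHO side with 10. These are 38.7% and 16.1%, beside 13.2% and 14.6% of all genes, and the median difference of the list was -0.58. LIN28B, which blocks the maturation of let-7 microRNAs and marks fetal and germ cell programs, stood at 2.22, 2.25, 2.82 and 2.74 in KURAMOCHI. It was at least 154-fold higher there (adjusted p of the fitted difference = 2.60e-07). SALL1 and DLX5 were measured in KURAMOCHI only, at least 22.7-fold and 23.5-fold higher, and the HOX cofactor MEIS2, which was well above background on 2 of 4 OVSAHO arrays, differed by -6.56. EYA2, a coactivator of homeodomain factors, was measured in OVSAHO only, at least 397-fold higher, as were the luminal factors GATA3, at least 20.8-fold, and FOXA1, at least 10.3-fold. SOX2, a stem cell factor, was higher in OVSAHO by 5.20 ± 0.20 and was well above background on 1 of 4 KURAMOCHI arrays.

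WNT signaling genes leaned to KURAMOCHI. WNT ligands bind frizzled receptors, and LEF1 and TCF7 carry the signal to targets that include AXIN2, SP5 and LGR genes. Of 40 genes tested, 13 were higher in KURAMOCHI and 2 in OVSAHO, with a median of -0.53. The shares were 32.5% and 5.0%, beside 13.2% and 14.6% of all genes. The target SP5 was measured in KURAMOCHI only, at least 31.8-fold higher. LEF1 stood at 4.67, 4.60, 3.87 and 3.82 in KURAMOCHI and -0.32, -0.41, 0.03 and -0.01 in OVSAHO, and AXIN2 differed by -1.68 ± 0.04. Among ligands and receptors, WNT5A differed by -3.91, FZD8 by -4.09 and LGR6 by -5.23. RSPO4, a ligand of LGR receptors, at 2.66, and the antagonist SFRP1 at 1.15 were the 2 genes higher in OVSAHO. SFRP1 was well above background on 1 of 4 KURAMOCHI arrays and was not called with normexp, at 0.41.

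Receptor tyrosine kinases leaned the same way, with 13 of 41 higher in KURAMOCHI and 6 in OVSAHO. The shares were 31.7% and 14.6%, beside 13.2% and 14.6% of all genes, so that the OVSAHO share was that of all genes. KIT was measured in KURAMOCHI only, at least 8.69-fold higher, and ROR2, TEK, IGF1R and MET were also higher there, although another probe of ROR2, not well above background in OVSAHO, was not held under both drugs. INSR at 3.08 and EPHB6, at least 16.1-fold, were higher in OVSAHO. The differences of EGFR and ERBB2 were 0.01 and -0.38 and were not called.

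Imprinted genes at a shared locus went in opposite directions. H19 and IGF2 are neighbours that are normally expressed from opposite parental copies. H19 stood at 5.64, 5.65, 4.85 and 5.02 in OVSAHO and was not well above background on any KURAMOCHI array. IGF2, a growth factor, stood at 5.39, 5.44, 4.99 and 4.98 in KURAMOCHI and at 2.69, 2.66, 1.56 and 1.67 in OVSAHO, a log2 difference of -3.06 ± 0.04 (adjusted p = 1.30e-07). Each gene had 2 probes and both gave the same call. NDN, on another imprinted locus, was higher in OVSAHO by 6.16 ± 0.66, and NAP1L5 was at least 22.4-fold higher in KURAMOCHI, while PEG3 and SNRPN differed by 0.03 and 0.24 and were not called. NDN was well above background on 3 of 4 KURAMOCHI arrays. Over the list, 4 and 6 of 31 genes tested were held, 12.9% and 19.4%, beside 14.6% and 13.2% of all genes.

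Cancer testis genes, normally kept to germ cells, were higher in OVSAHO for 9 of 25 tested and in KURAMOCHI for 3. In OVSAHO this was 36%, beside 14.6% of all genes, while the KURAMOCHI share was near the 13.2% of all genes. The median of 1.02 was -0.12 without the filter on dim probes. With only probes well above background on all 8 arrays, it was 0.26, and the counts were 4 in OVSAHO and 1 in KURAMOCHI. CT45A1 and MAGEA8 were at least 124-fold and 65.2-fold higher in OVSAHO, and MAGEA4 stood at 1.56 to 1.79 in OVSAHO and -3.63 to -3.08 in KURAMOCHI. SSX1, at least 13-fold, MAGEA12 and PRAME were the 3 genes higher in KURAMOCHI. Another probe of PRAME, not well above background on any OVSAHO array, was not held, with 0.60 under simvastatin and -5.38 under L-778123. The families have close paralogs, so that a probe may read more than the gene it is named for.

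Genes of antigen presentation and of the interferon response divided within their list, with 13 of 49 tested (26.5%) on each side. The shares of all genes were 14.6% in OVSAHO and 13.2% in KURAMOCHI. HLA-DPB1, of MHC class II, was at least 7.06-fold higher in OVSAHO, and HLA-DMA, which helps to load it, differed by 3.48 ± 0.05. HLA-DRA and CD74, of the same pathway, were near background in OVSAHO and not above it in KURAMOCHI, with bounds of 1.26-fold and 1.16-fold. CIITA, their regulator, was well above background only on the 2 OVSAHO arrays with simvastatin, with a bound of 1.39-fold over all 4. Among the genes higher in KURAMOCHI were the interferon-induced IFI6 at -5.19, IFI44L at -5.08, MX1 at -3.15 and ISG15 at -2.81. IRF7, a transcription factor that drives interferon genes, stood at 3.52 to 4.15 in KURAMOCHI and was at least 380.2-fold higher than in OVSAHO. MX2 and ISG20, which are also interferon-induced, were higher in OVSAHO, with differences of 1.70 and 2.14, and B2M, the shared subunit of MHC class I, differed by -1.17 ± 0.04.

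Of 45 genes tested that take up, export or detoxify drugs, 7 (15.6%) were higher in OVSAHO and 10 (22.2%) in KURAMOCHI. The shares of all genes were 14.6% and 13.2%, so that the OVSAHO share was near that of all genes. GSTT1, a glutathione transferase, was at least 234-fold higher in KURAMOCHI, and AKR1C3, CYP1B1, ABCC3 and MGST1 were higher there as well, although another probe of ABCC3 was not held under both drugs. ABCC4, SLCO4A1 and GSTO1 were higher in OVSAHO by 2.62, 2.55 and 2.39. The efflux pumps ABCB1 and ABCG2 and the uptake carrier SLCO1B3 were not tested because they were too dim. VDAC1, a channel of the outer mitochondrial membrane, stood at 6.22 to 6.66 in OVSAHO against 5.87 to 6.32 in KURAMOCHI. Its log2 difference of 0.36 was under 2-fold and not called, and the test for a change with the drug gave an adjusted p of 0.751 (limma). Among neuronal genes, 5 and 4 of 17 tested were held, 29.4% and 23.5% beside 14.6% and 13.2% of all genes. They included SYP, a synaptic vesicle protein, at least 5.51-fold higher in OVSAHO, and MAP2, a dendrite protein, at -4.04. SST, the hormone somatostatin, stood at 2.81 to 4.35 in OVSAHO and was at least 267-fold higher there. Of mesothelial genes, 2 and 3 of 12 tested were held, 16.7% and 25.0% beside 14.6% and 13.2% of all genes. Surface targets of antibody therapy were held for 8 and 4 of 27 tested, 29.6% and 14.8% beside 14.6% and 13.2% of all genes. They included FOLR1, VTCN1 and L1CAM with OVSAHO and CDH6 and MET with KURAMOCHI. The median of the list was 0.28, and -0.27 when only probes well above background on all 8 arrays were used.

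**Figure D4:**
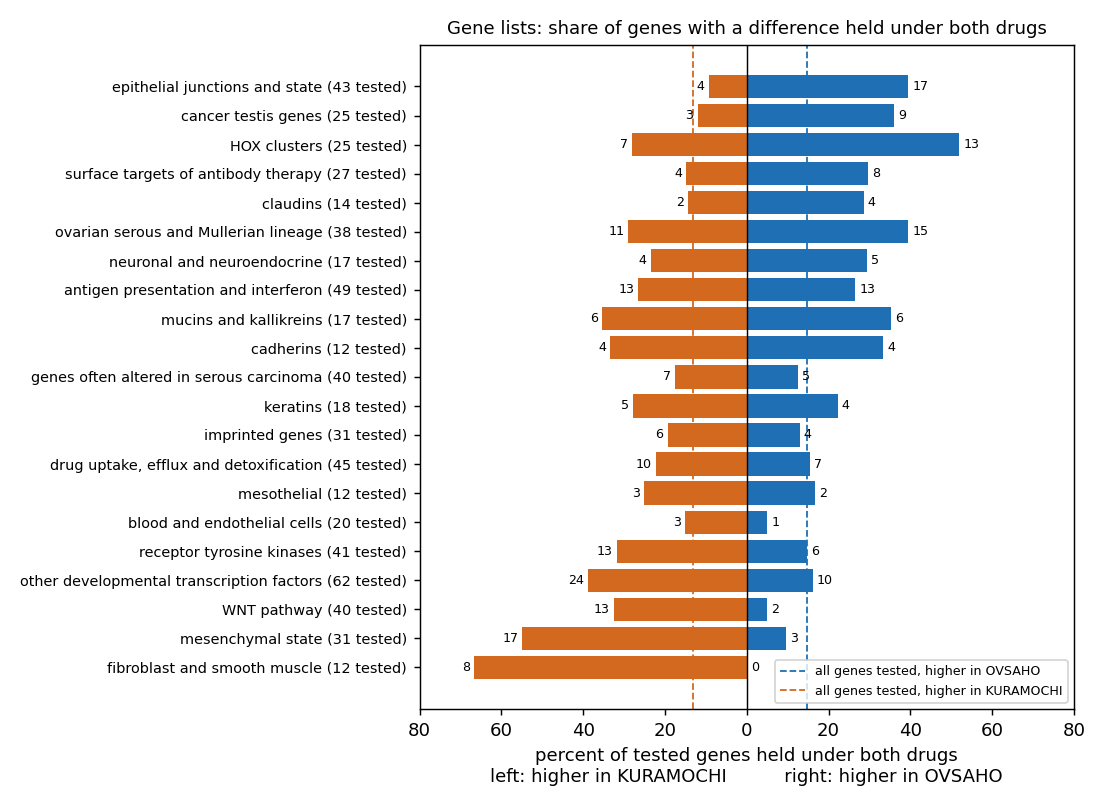
Bars give, for each gene list, the percent of tested genes held higher in OVSAHO (blue, right) or in KURAMOCHI (orange, left), with the number of genes at the end of the bar and dashed lines at 14.6% and 13.2%, the shares of all genes tested. Epithelial genes extend mainly to the right and mesenchymal, fibroblast and WNT genes mainly to the left, while HOX genes extend beyond the dashed lines on both sides. Lists share some genes and were written with earlier results of these data known.

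Genes often altered in serous carcinoma differed at a few members, 5 and 7 of 40 tested, or 12.5% and 17.5% beside 14.6% and 13.2% of all genes. RB1 stood at 4.37, 4.23, 4.19 and 4.19 in KURAMOCHI and at 2.44, 2.53, 2.53 and 2.44 in OVSAHO, a log2 difference of -1.76 ± 0.05. BRCA2 was well above background on 2 of 4 OVSAHO arrays, those with L-778123, and differed by -2.18 ± 0.08, or by -0.78 with normexp, where it was not called. SMAD4 stood at 5.07 to 5.48 in OVSAHO and 2.91 to 3.38 in KURAMOCHI, a difference of 2.13 ± 0.04. MYC at -0.18, CCNE1 at 0.20 and CDKN2A at -0.32 were not called.

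These genes did not differ alone. Genes were put in the order in which the annotation places them, and the median difference of each 21 neighbouring genes was taken, a measure chosen after the data had been seen and given without a test. Among 16475 such windows, 1% had a median below -1.55 and 1% one above 1.63. On chromosome 13, windows centred on 138 consecutive genes from UBL3 to MZT1, a stretch that holds BRCA2 and RB1, had medians of -1 or below. Of the 138 genes in this stretch, 90 were higher in KURAMOCHI and 3 in OVSAHO, beside 13.2% and 14.6% of all genes. LPAR6, a receptor gene that lies within RB1, was at least 75.9-fold higher in KURAMOCHI. The window around the HOXD cluster on chromosome 2, from SP9 to LINC01117, had a median of -2.27. Of its 21 genes, 15 were higher in KURAMOCHI and 0 in OVSAHO.

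Chromosomes 18 and X leaned to OVSAHO. On chromosome 18 the median difference over 240 genes was 1.00, and 108 genes (45.0%) were higher in OVSAHO against 8 (3.33%) in KURAMOCHI. The shares of all genes were 14.6% and 13.2%. The stretch from MIB1 to ONECUT2, which includes SMAD4, held 108 genes with a median of 1.39. On chromosome X the median over 610 genes was 0.84, with 229 genes (37.5%) higher in OVSAHO and 32 (5.25%) in KURAMOCHI, beside the same shares of all genes. The cancer testis genes CT45A1, MAGEA8 and MAGEA4 are on that chromosome, as are SSX1 and MAGEA12, which were higher in KURAMOCHI. A window from HNRNPH2 to BEX4 on it had a median of 2.31.

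Chromosome 19 held the largest window median, 2.72, from ZNF790-AS1 to ZFP30, a run of zinc finger genes of which 20 of 21 window genes were higher in OVSAHO and ZFP30 at least 217-fold. Another zinc finger run on it, from ECSIT to ZNF44, had a median of 2.34. Of 220 genes on chromosome 19 with a ZNF or ZFP symbol, 88 (40.0%) were higher in OVSAHO and 22 in KURAMOCHI, beside 24.7% and 12.8% of the 978 other genes of the chromosome and 15.2% and 8.04% of zinc finger genes elsewhere. No run of at least 5 consecutive genes was well above background in 1 line and in no array of the other. Copy number and methylation were not measured here, so that their part in these runs was not tested.

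**Figure D5:**
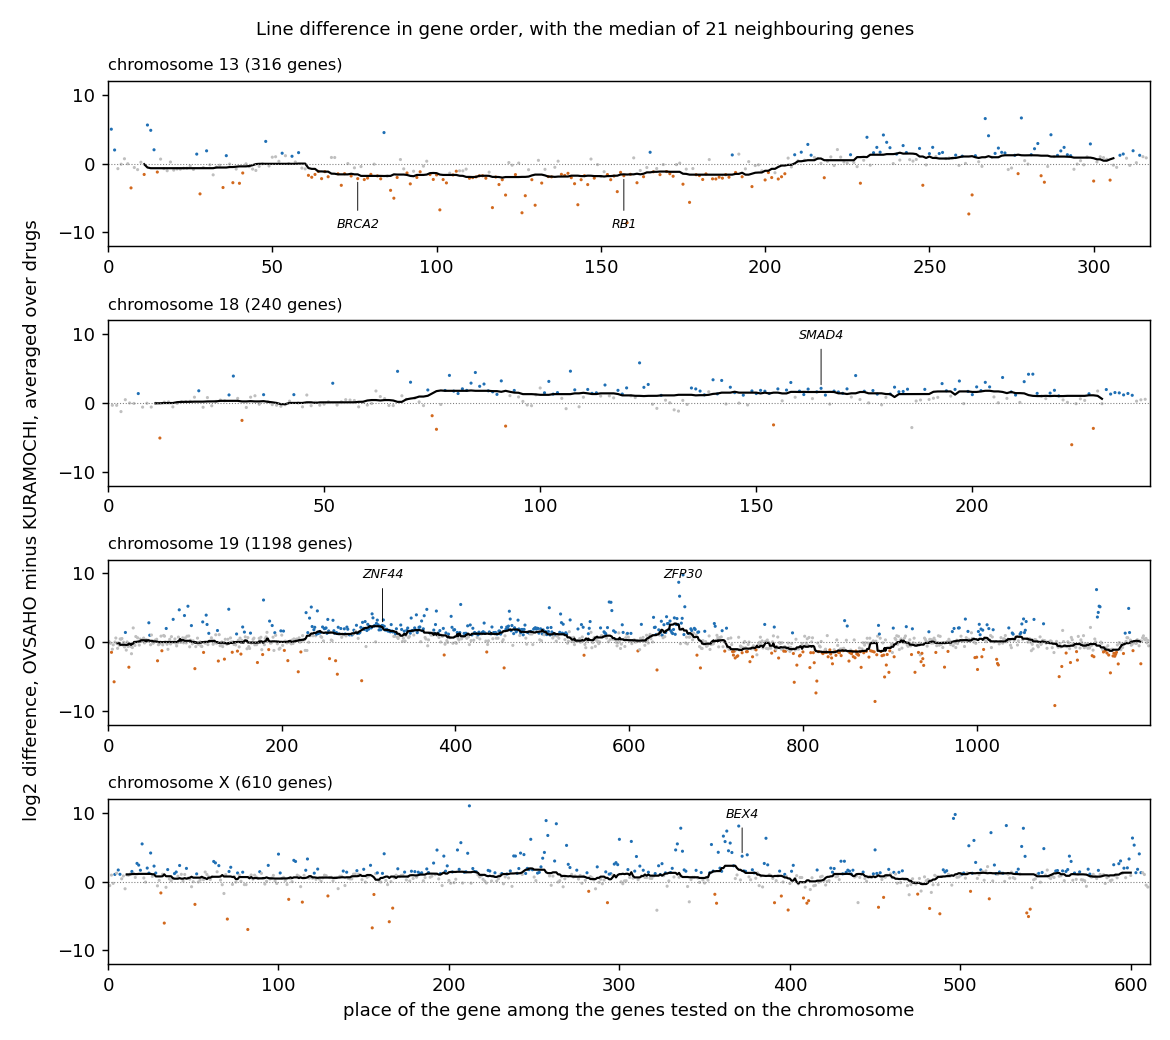
The log2 difference of OVSAHO minus KURAMOCHI, averaged over the drugs, is plotted for each gene tested, except XIST, in its order on 4 chromosomes. Blue and orange points are genes held higher in OVSAHO and KURAMOCHI, and grey points are the rest. The black line is the median of 21 neighbouring genes. The line drops across the stretch with BRCA2 and RB1, and lies above 0 over much of chromosomes 18 and X.

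Over all genes tested, the largest differences among genes well above background on all 8 arrays were led in OVSAHO by HSPA1A, LHX1, RNF182, a ubiquitin ligase, at 7.76, GABRE, a GABA receptor subunit, at 7.75, and HOTAIRM1. The complement component C3 stood at 4.85 to 5.0 in OVSAHO and -1.51 to -0.92 in KURAMOCHI. In KURAMOCHI they were led by IGFBP7, SELENBP1, a selenium binding protein, at -9.47, and NIBAN2 at -8.63. APOE, a lipid carrier protein, stood at 7.57 to 7.80 in KURAMOCHI and 0.20 to 0.47 in OVSAHO, and TIMP1, an inhibitor of matrix proteases, differed by -6.72 and CCN2, a matricellular target of YAP, by -6.68. All of these differences were held under both drugs, and the tests for a change with the drug gave adjusted p-values of 0.997, 0.606 and 0.888 for HSPA1A, APOE and TIMP1. The size changed with the drug for IGFBP7, at -11.34 under simvastatin and -9.11 under L-778123 (adjusted p = 6.67e-04), for SELENBP1, at -8.73 and -10.22 (adjusted p = 0.00174), and for CCN2, at -7.60 and -5.76 (adjusted p = 0.0113). It also changed, with adjusted p-values of 0.00254, 0.0145, 0.0186 and 0.0397, for LHX1, GABRE, HOTAIRM1 and C3.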

How the data were processed

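RNA of OVSAHO and KURAMOCHI cells treated with simvastatin or L-778123 was hybridised to 8 Agilent 1-colour arrays. The deposited scanner files hold the processed intensity of each spot, background-subtracted by Feature Extraction 11.5.1.1 per the submitters' notes, with a flag for signal well above background. Each array's log2 intensity was set relative to its 75th percentile after control spots and outlier flags were left out, which kept 58162 probes. Intensities are relative, so the number of arrays limits the precision.

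Probes entered the tests (33752 of them) if at least 1 of the 4 groups had them well above background on each of its 2 arrays. The 4 groups were fitted together with limma 3.58.1 in R 4.3.3, and adjusted p-values cover all probes tested. A gene was represented by its tested probe of highest mean signal, and other probes are given where they disagree. Identifiers were named from the array files and a RefSeq table of GRCh38.p14, also used for gene order and promoters although the array design is annotated on hg19. It named 24768 of 50069 identifiers, which covers 31079 probes. Figures were drawn with Python 3.11.15 and matplotlib 3.10.9. The fit was tested on simulated data.

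The gene lists and the members were chosen with earlier results of these data known. Genes were named if they were the 10 largest differences or bounds in each line, the 3 largest of a list in each direction, or 1 of a fixed set of key genes. Some genes that meet this rule are not reported here. Other genes named here were chosen after their values were seen, as were the windows of 21 genes and the stretches made from them. Alternatives covered background correction (normexp, offset 50), normalization by quantiles, the filter on dim probes, a floor, the fold threshold, the choice of probe, an additive fit, the replicate block, leaving out each array, and the methods' two-way analysis of variance. The authors' processed table of linear intensities served as another alternative. Its sorted log2 values above the median differed between arrays by at most 0.0158, although the methods name a 75th percentile scaling, and it correlated with the scanner signal at 0.999 or more.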

Additional observations from a re-analysis of the deposited data

Results flagged for a closer look

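With 2 arrays in a group, no single array could be tested as standing apart. The results below stood out because the difference between the lines was not the same under the drugs, by limma's test of the change, given here as the line difference under simvastatin minus that under L-778123 on the log2 scale with its adjusted p. The change was 5.31 for ACTA2, the smooth muscle actin (1.31e-04), since the line difference was -4.55 under simvastatin and -9.86 under L-778123. It was 3.16 for MUC16 (0.00103) and -2.23 for IGFBP7 (6.67e-04), which kept their direction. It was 2.93 for VTCN1 (0.0139) and 2.43 for the synaptic gene SYT1 (0.0133), but neither was well above background on any KURAMOCHI array, so that the size of their line difference is not settled under either drug. It was -3.19 for LAD1 (2.38e-04), 3.62 for the endothelial kinase TEK (7.15e-04) and 2.00 for KLK1 (0.0127), where OVSAHO was not well above background on all arrays. The endothelial gene VWF had a change of -3.15 (3.25e-04) on the probe used, while another probe, well above background on all 8 arrays, gave line differences of -0.08 under simvastatin and 0.06 under L-778123. The line difference turned with the drug for PDGFB, a growth factor, with a change of 5.74 (5.64e-04), for the proton pump subunit ATP6V0A4, with 5.63 (6.75e-05), for LMOD1, a muscle actin regulator, with 5.24 (4.58e-04), for NKAIN2 with -4.16 (0.00709), and for PI15 with 4.67 (0.00136), which was not well above background in OVSAHO. PDGFB and NKAIN2 were well above background on 2 of 4 arrays of each line.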

How the results depend on the processing

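Of 24 settings, 21 or 22 gave a value for each named gene. In these no named gene that was called reversed, and 125 of the 164 named genes that were called kept their sign and call. Reversals were not counted for named genes that were not called, and some of these changed sign. HOXA10 ranged from -2.68 to 0.13 and EGFR from -0.06 to 0.61. Counts are given as higher in OVSAHO and in KURAMOCHI. At a fold threshold of 1.5 the counts were 4727 and 4424 averaged over drugs, 4510 in KURAMOCHI under simvastatin, 4603 and 4264 under L-778123, and 3827 and 3513 held under both. At a fold threshold of 4 they were 1216 and 1204, 1297 and 1261, 1217 and 1236, and 967 and 976. Leaving out 1 array gave 3084 to 3133 and 2779 to 2802 averaged, 3164 to 3209 and 2914 to 2933 under simvastatin, 2981 to 3075 and 2702 to 2762 under L-778123, and 2445 to 2483 and 2201 to 2223 held. Replicate numbers did not pair the arrays, since the deviations of arrays of the same number correlated at 8.45e-04 to 0.0556. The fit with a replicate block held 2477 and 2234 genes. Normexp ended the calls of 24 named genes, among them BRCA2 at -0.78, ESR1 at 0.99 and HOXA2 at 0.82, and held 1712 and 1566 genes. A floor on dim signals ended those of HOXA13, HOXA6, LRRN4 and TGFBI, whose bounds are all small. The median over probes made HOXA9 and HOXA10 called. Leaving out replicate 2 of KURAMOCHI with simvastatin ended the calls of EMX2 and PTPRC. The HOX median of 1.44 was -0.20 without the filter on dim probes, where the median of all genes was -0.10. For settings other than those that changed which probes or genes entered, the cause was not tested. Near background, signal limits what can be said of size.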
